A study of Homo sapiens with 32 samples.

Results

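FOXJ1, UNG2 and CAPS are 3 genes of the multiciliated cell program, and they were represented by 4 of the 9912 cDNA probes on the arrays: 2 clones of FOXJ1 and 1 clone each of UNG2 and CAPS. They were chosen as every probe that carries 1 of these symbols in the study's list of 333 tamoxifen-responsive probes, and that list was selected on the fold change of tumor over pool across the days on these same arrays. Their values below are therefore a description and no test was run on them. The symbol UNG2 stands in that list beside an Ensembl gene identifier known as that of CCNO (cyclin O), and the gene is called CCNO here. The reference table used here holds no Ensembl identifiers, so this link was not checked against a source, and that table lists UNG2 as an older name of UNG, a different gene on chromosome 12. The name CCNO therefore rests on the identifier alone, for every value given under it. RefSeq places FOXJ1 on chromosome 17, CCNO on chromosome 5 and CAPS on chromosome 19.

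Multiciliated cells line airways, oviducts and brain ventricles and carry many motile cilia on their surface. They form when a regulatory program that contains the geminin relatives GMNC and MCIDAS, the factor MYB and later FOXJ1 is switched on. The program turns on the genes for centriole amplification and for the moving parts of cilia. FOXJ1 is the forkhead transcription factor that drives the motile cilia genes, cyclin O is needed to make the many centrioles from which the cilia grow, and CAPS (calcyphosine) is a calcium-binding protein abundant in ciliated epithelia. Luminal breast cancer cells such as those studied here are not known as multiciliated cells.

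The tumors were xenografts of ZR75-1, an estrogen receptor-positive human breast cancer cell line, grown in female nude mice. The tamoxifen group held 16 tumors from 12 mice that received E2 (estradiol) together with slow-release tamoxifen, 2.5 mg in all over 60 days, for 1 day (4 tumors of 2 mice), 2 days (2 tumors of 2 mice), 4 days (4 tumors of 3 mice), 7 days (4 tumors of 3 mice) or 14 days (2 tumors of 2 mice). The control was a pool of RNA from xenografts of mice that received E2 without tamoxifen, taken at days 0, 1, 2 and 4. Each tumor was hybridized against this pool on 2 arrays of opposite dye labelling, giving 32 arrays, and the pool was the only control sample, so its own spread between mice was not measured. Since no E2-only tumor of day 7 or 14 entered the pool, tamoxifen and the age of the tumor cannot be told apart at those days.

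A few facts about the arrays bear on every value. On 1 array, titled as the dye swap of day 4 replicate 4 but naming the tumor of the forward array of replicate 3, the log ratios followed those of another array, the forward array of day 4 replicate 2 (r = 0.98 over all probes), and not its labelled tumor, and it was left out. The label of the dye swap of day 14 replicate 1 lacks the letter L that its forward array carries after the mouse number. Both arrays were taken as the same tumor, and this was not checked. The array files do not name the dyes, and the likely direction, tumor over pool, was taken from the authors' own table of normalized values, with which the ratios correlated positively on 32 of 32 arrays, with r from 0.22 to 0.99. Among the arrays used, r was lowest on the forward array of day 7 replicate 4 (0.22) and the dye swap of day 2 replicate 1 (0.33). In this direction the estrogen-induced genes TFF1, TFF3 and PDZK1 had mean log2 ratios of -2.11, -1.94 and -1.51 at day 14 (adjusted p 0.000201, 4.24e-05 and 0.00878, limma), and IGFBP5, a growth factor-binding protein, had 2.56 (adjusted p 0.0036, limma). If the channels were the other way round, every sign in this text would turn.

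All 3 members were high at day 14, and promoter windows are shown for CCNO and CAPS, to show which known binding sequences these windows hold. The reference used held no window for FOXJ1, so its promoter was not analysed here. RefSeq gave a window of 250 bases before to 50 bases after the start of CCNO (GRCh38.p14, chr5:55233559-55233858, minus strand) and of CAPS (GRCh38.p14, chr19:5914004-5914303, plus strand). Both are printed 5′ to 3′ on the strand of the gene, and capitals mark the only match to the sequences searched.
CCNO: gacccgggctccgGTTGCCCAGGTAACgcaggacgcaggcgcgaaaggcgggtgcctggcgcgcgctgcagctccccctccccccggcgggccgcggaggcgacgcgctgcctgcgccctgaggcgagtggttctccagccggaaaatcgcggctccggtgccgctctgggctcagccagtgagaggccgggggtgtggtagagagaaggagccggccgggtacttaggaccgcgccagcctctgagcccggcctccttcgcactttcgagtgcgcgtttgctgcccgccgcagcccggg
CAPS: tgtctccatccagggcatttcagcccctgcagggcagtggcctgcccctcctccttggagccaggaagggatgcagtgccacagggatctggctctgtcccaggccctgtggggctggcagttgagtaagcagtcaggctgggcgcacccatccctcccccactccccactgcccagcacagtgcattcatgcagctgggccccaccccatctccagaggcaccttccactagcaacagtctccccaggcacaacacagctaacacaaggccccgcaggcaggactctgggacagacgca
The capitals in the CCNO window are an X-box, the sequence bound by RFX factors, which act with FOXJ1 on cilia genes. It was searched on both strands as GTNNCCNNNGNAAC, and the 1 site, which matched on either strand, starts 237 bases before the gene start. This form occurred in 802 of 35116 promoter windows of the same length (2.28%), and any form with 0 to 3 bases between the flanks, in place of the 2 found here, in 1761 (5.01%). The spacing was chosen with the CCNO sequence known. The CAPS window held none of these forms. The forkhead sequence GTAAACA (3.42% of windows), the estrogen response element GGTCANNNTGACC (0.057%) and the MYB sequence AACGG (19.7%), each on both strands, had no match in either window. A match is a description of letters and not a measured binding site.

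FOXJ1 was the member that differed most from the pool at day 14. With the dimmer of its clones its log2 ratios of tumor over pool were -0.16, -0.0030, -0.12 and 0.0059 in the 4 tumors of day 1 and 0.46 and 0.57 at day 2. They were 0.94, 0.88, 0.59 and 0.34 at day 4 and 0.73, 0.34, 0.37 and 1.06 at day 7. At day 14 the 2 tumors had 1.84 and 2.90. The tumors of day 1 lay at the level of the pool, those of days 2, 4 and 7 all lay above every tumor of day 1, and both tumors of day 14 lay above the other 14. The mean ± SD for days 1 and 2 was -0.07 ± 0.08 (n = 4) and 0.51 ± 0.08 (n = 2), for days 4 and 7 it was 0.69 ± 0.28 and 0.62 ± 0.34 (n = 4 each), and for day 14 it was 2.37 ± 0.75 (n = 2). The day 14 mean corresponds to a 5.19-fold level over the pool. It ranked 4 from the top among the day 14 means of the 9912 probes. In whole tumors a higher level in every cell and a larger share of cells with the transcript cannot be told apart.

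The brighter FOXJ1 clone gave the same sequence of values by day with more spread at day 1. Its log2 ratios were -0.69, 0.17, -0.060 and 0.062 at day 1 and 0.10 and 0.45 at day 2. They were 1.02, 0.91, 0.93 and 0.19 at day 4, 1.03, 0.22, 0.53 and 0.70 at day 7, and 1.78 and 2.96 at day 14. Here day 2 overlapped with day 1, while days 4 and 7 lay wholly above day 1, by as little as 0.016, and overlapped with day 2. The mean ± SD for days 1 and 2 was -0.13 ± 0.39 (n = 4) and 0.28 ± 0.25 (n = 2), and for days 4 and 7 it was 0.76 ± 0.38 and 0.62 ± 0.34 (n = 4 each). For day 14 it was 2.37 ± 0.84 (n = 2), a 5.17-fold level over the pool. The 2 clones are separate spots for 1 gene on the same arrays, so they check the probe and not the tumors. Over the 16 tumors they differed by a median of 0.14 and by at most 0.53 (log2), which was in day 1 replicate 1, and at day 14 by at most 0.07.

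CCNO stood above the pool from the first day. Its log2 ratios were 0.27, 0.099, 0.62 and 0.39 at day 1, 0.60 and 0.63 at day 2, 0.57, 0.51, 0.37 and 0.36 at day 4, and 0.25, 0.57, 0.44 and 0.46 at day 7. At day 14 they were 1.41 and 1.72. All 16 tumors were above the pool. The days from 1 to 7 formed no steady order, since day 2 lay above days 4 and 7 without overlap but overlapped with day 1, and the smallest gap between day 2 and days 4 and 7 was 0.033. The day 14 mean ± SD was 1.56 ± 0.22 (n = 2), a 2.95-fold level over the pool. The earlier means were 0.35 ± 0.22 for day 1 (n = 4), 0.62 ± 0.02 for day 2 (n = 2), 0.45 ± 0.10 for day 4 and 0.43 ± 0.13 for day 7 (n = 4 each).

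CAPS stayed near the pool until day 7. Its log2 ratios were 0.11, 0.31, 0.0033 and 0.32 at day 1, 0.23 and -0.0015 at day 2, 0.21, 0.34, 0.081 and -0.15 at day 4, and 0.40, 0.40, 0.17 and 0.21 at day 7. At day 14 they were 1.30 and 1.86. The 4 earlier days all overlapped with each other, and only the 2 tumors of day 14 stood apart. The day 14 mean ± SD was 1.58 ± 0.39 (n = 2), a 2.98-fold level over the pool. The earlier means were 0.19 ± 0.15 for day 1 (n = 4), 0.11 ± 0.16 for day 2 (n = 2), 0.12 ± 0.21 for day 4 and 0.30 ± 0.12 for day 7 (n = 4 each).

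**Figure D1:**
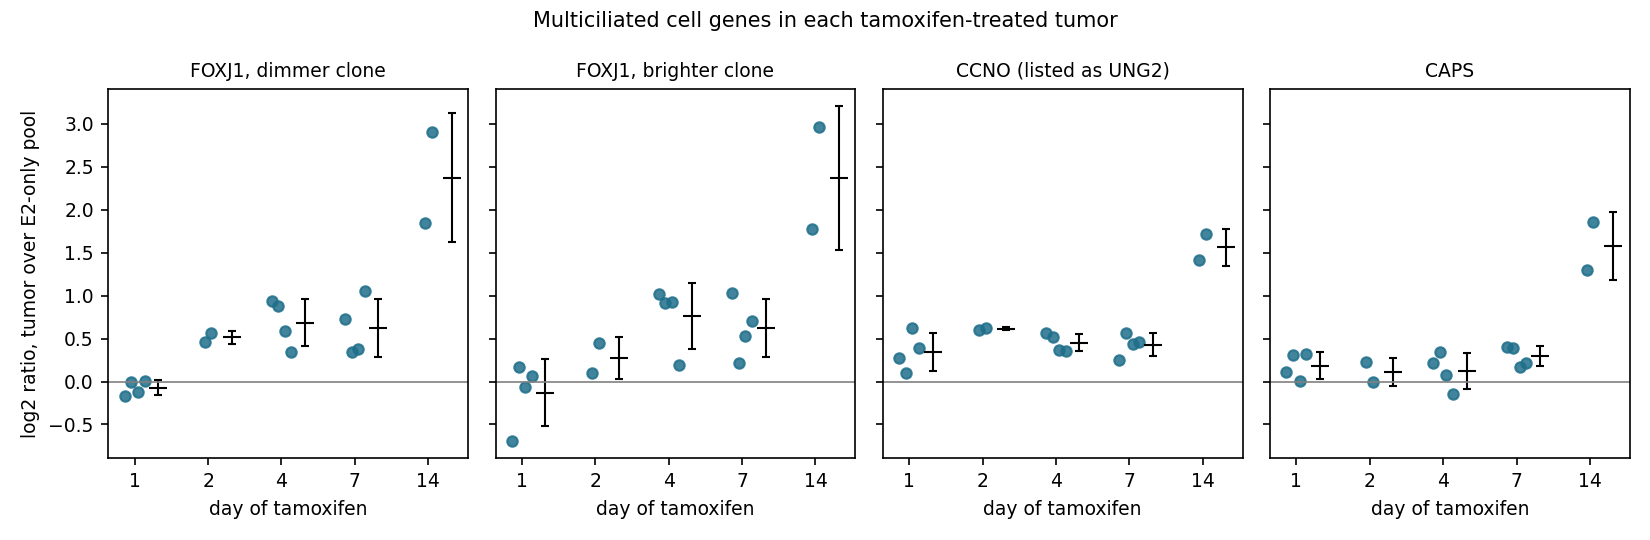
Log2 ratio of tumor over E2-only pool for each probe by day of tamoxifen, 1 point for each of the 16 tumors, with bars for the mean and SD of each day. In all 4 panels both points of day 14 lie above every point of days 1 to 7, with 1.84 and 2.90 for the dimmer FOXJ1 clone and 1.30 and 1.86 for CAPS.

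For 4 of 4 probes both tumors of day 14 lay above all 14 tumors of the other days, which was so for 324 of 9865 probes with a value in every tumor (3.28%). The reverse, both tumors of day 14 below all others, held for 229 probes (2.32%) and for none of the 4. A day 14 mean of at least 1 on the log2 scale was likewise reached by 4 of 4 probes, and by 45 of 9912 probes on the arrays (0.454%). These measures belong to the change over time for which the genes were listed, so nothing is read from the comparison with these shares. On day 1 every tumor lay above the pool for 2 of 4 probes (15.2% of all probes). That number was 3 on day 2 (29.9%) and 3 on day 4 (8.67%), and it was 4 on both day 7 (11.6%) and day 14 (34.2%).

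The 3 genes differed in the size and in the timing of their departure from the pool. At day 1 the log2 ratio of CCNO was above that of FOXJ1 (mean of its clones) in 4 of 4 tumors, by 0.45 ± 0.33, and at day 14 it was below it in 2 of 2, with a difference of -0.81 ± 0.58. CAPS was above FOXJ1 in 4 of 4 tumors of day 1, by 0.29 ± 0.19, and below it in 4 of 4 tumors of day 4, with a difference of -0.60 ± 0.15, and in 2 of 2 of day 14, with -0.79 ± 0.40. At day 4 FOXJ1 was above the pool in 4 of 4 tumors and CAPS in 3 of 4. CAPS and CCNO had nearly equal ratios at day 14, with a difference of 0.01 ± 0.18 (SD, n = 2), but CAPS was the lower in 4 of 4 tumors of day 4, by a difference of -0.33 ± 0.14. These differences compare ratios within a tumor and say nothing of the genes' levels against each other.

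Of the 2 tumors of day 14, replicate 2 was higher than replicate 1 for each of the 4 probes, which include both clones of FOXJ1. The share of all probes with this order was not computed, so the order is not read as particular to these genes. The gap was wide for FOXJ1, with 2.90 against 1.84 and 2.96 against 1.78 for its clones, and narrow for CCNO, with 1.72 against 1.41. Between tumors of 1 mouse, of which 4 pairs were measured, the size of the difference for the dimmer FOXJ1 clone had a median of 0.14 and a highest value of 0.69, against a median of 0.31 in 16 pairs of the same day from different mice. The corresponding medians were 0.15 and 0.49 for the brighter clone, 0.11 and 0.20 for CCNO and 0.16 and 0.22 for CAPS. The pairs from 1 mouse came from days 1, 4 and 7 alone, whereas the 16 pairs also included days 2 and 14 and shared tumors. The 2 kinds of pair are therefore not alike, and an effect of the mouse on these genes was not tested. Over all probes the correlation within a mouse was 0.021.

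The ratios can be split into the 2 channels of the arrays, since the pool was the same RNA throughout. For the dimmer FOXJ1 clone the normalized log2 intensity of the tumor channel was 9.92 and 11.02 in the tumors of day 14, against 7.48 to 9.28 in those of the other days, while its pool channel read 8.07 and 8.11 on the day 14 arrays and 7.64 to 8.51 on the others. The brighter clone read 10.23 and 11.61 in the tumor channel at day 14, against 7.70 to 9.70 at other days, and CAPS read 10.55 and 11.54, against 9.08 to 10.11. For these 3 probes the day 14 tumor readings lay above all others and, after normalization, the day 14 pool readings lay within those of the other days. CCNO was different. Its tumor channel read 11.43 and 11.91 at day 14, against 10.10 to 11.49 at other days, so the groups overlapped, and its pool channel averaged 10.11 on the day 14 arrays, with readings of 10.02 and 10.20, against 10.01 to 10.87 on the others.

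**Figure D2:**
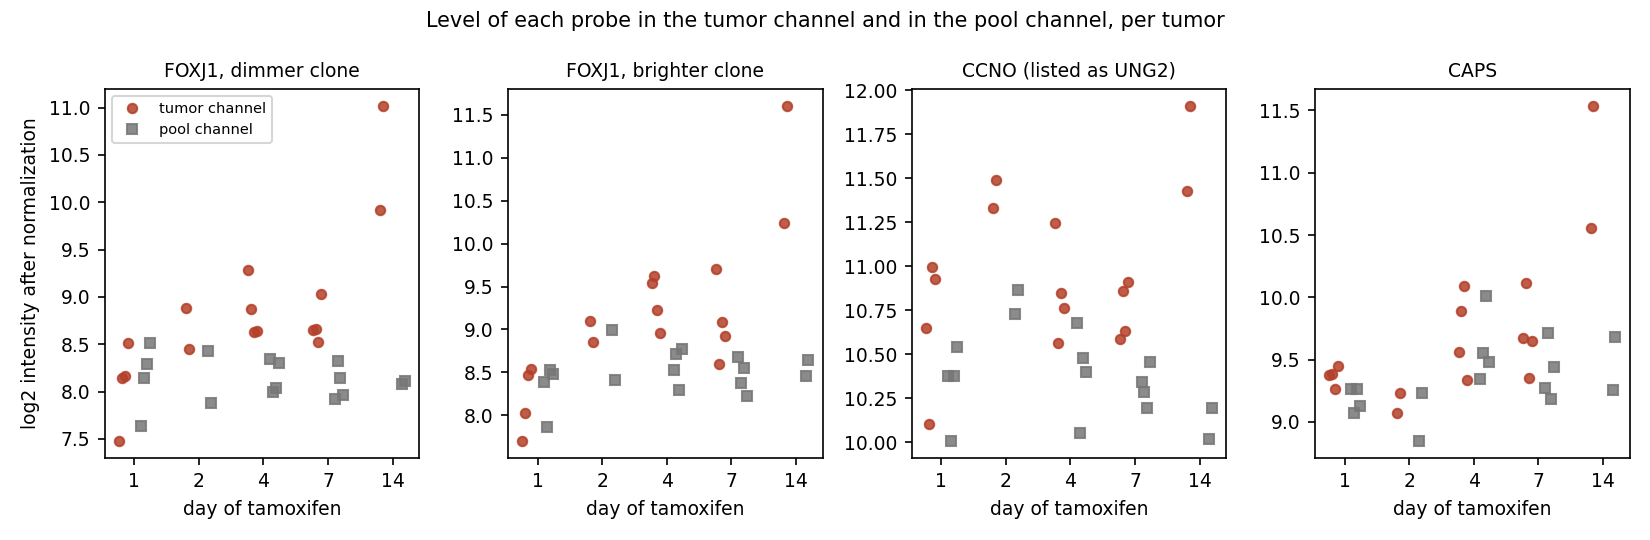
Normalized log2 intensity of each probe in the tumor channel (circles, left) and in the pool channel (squares, right), each point the mean over the arrays of 1 tumor, by day of tamoxifen; the vertical axes differ between panels. For FOXJ1 and CAPS the 2 tumor points of day 14 lie above all others and the normalized pool points keep their range, whereas for CCNO the lower day 14 tumor point of 11.43 is under the highest of day 2 at 11.49.

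FOXJ1 had the lowest median pool signal of the members over the 31 arrays used. It was not dim among all probes, since 48.9% and 56.9% of them were dimmer than its clones by mean signal. In the tumor channel of the day 14 arrays the dimmer FOXJ1 clone ranged from 5.79 to 17.5 times the background and the brighter clone from 7.29 to 31.5 times. In the pool channel its signal was a median of 3.90 times the local background for the dimmer clone and 4.80 times for the brighter clone over 31 arrays, against 14.0 times for CCNO and 7.87 times for CAPS. On the 4 arrays of day 14 the pool was dimmer still, with medians of 2.29 times the background (lowest 2.04) for the dimmer clone and 2.87 times (lowest 2.40) for the brighter clone, so the denominator of the day 14 ratios of FOXJ1 was weakly measured. The lowest pool signal over background was on a day 14 array for CCNO (4.34 times, against 7.11 times on the lowest array of the other days) and for CAPS (2.87 against 3.03 times) as well.

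The dye orientation also moved the values of FOXJ1 and CAPS. Forward arrays gave a higher ratio than their dye swaps in 15 of 15 tumors for both FOXJ1 clones, by 0.74 ± 0.38 and 0.79 ± 0.44, and in 14 of 15 for CAPS, by 0.50 ± 0.44 (SD, n = 15). For CCNO the difference was 0.04 ± 0.19, with the forward array higher in 9 of 15. The widest gap between the orientations was in day 14 replicate 1 for both FOXJ1 clones, at 1.55 and 1.77, and for CAPS, at 1.17. For CCNO the gap in this tumor was 0.13. In this tumor the label of the dye swap is incomplete. The size of the mean difference exceeded that of 95.3% and 96.2% of all probes for the FOXJ1 clones, of 84.9% for CAPS and of 9.41% for CCNO. A difference that the dyes alone make cancels in the mean of both orientations, except in day 4 replicate 3, which has its forward array alone. Without that tumor the day 4 means were 0.72 and 0.70 for the FOXJ1 clones, 0.48 for CCNO and 0.14 for CAPS.

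Each orientation on its own kept day 14 apart from the other days for the 4 probes. The share of all probes for which this holds in a single orientation was not computed. The members were listed on these same arrays, so nothing is read from this separation. On the dye-swap arrays, which gave the lower ratios, the lowest day 14 value was 1.07 for the dimmer FOXJ1 clone, against a highest value of 0.79 at other days. For the brighter clone it was 0.89, against 0.85, a narrow gap. It was 1.34 for CCNO, against 0.70, and 0.72 for CAPS, against 0.59. The sign of the smaller ratios could depend on the orientation, as at day 1, where the mean for the dimmer FOXJ1 clone was 0.22 on forward arrays and -0.36 on dye swaps.

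**Figure D3:**
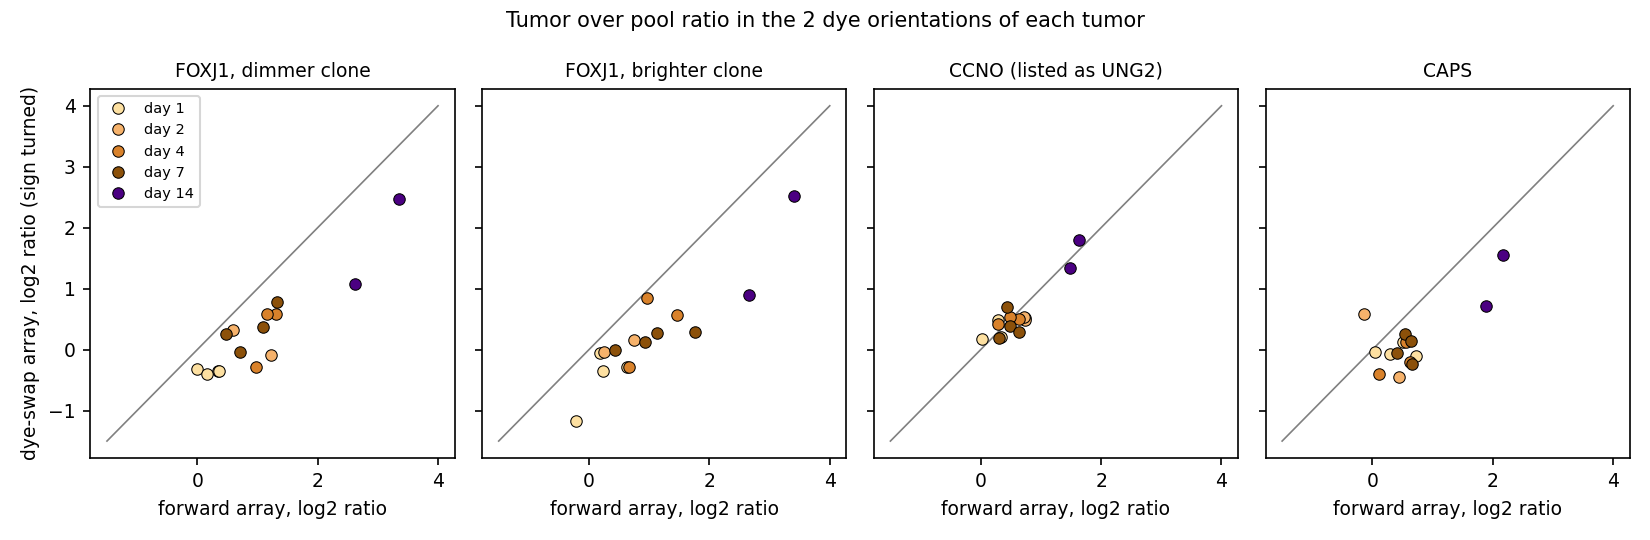
Log2 ratio of tumor over pool on the forward array (horizontal axis) and on the dye-swap array of the same tumor (vertical axis, sign turned), 15 tumors coloured by day, with the line of equal values. The FOXJ1 points all lie below the line, by 0.74 and 0.79 on average for the 2 clones, the CCNO points lie along it, and in every panel the 2 points of day 14 are the highest on both axes.

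Of the other genes of the program few could be read, because only the 333 listed probes carry a gene name here. Of 21 further regulators of multiciliogenesis 2 were named, and of 65 genes for the structure of motile cilia none was. Whether cilia genes followed FOXJ1 therefore cannot be read from the probes named here. MYB, which acts upstream of FOXJ1 in multiciliated cells of mouse and Xenopus, had log2 ratios of -0.39 and -0.75 at day 14 (mean -0.57 ± 0.26), and its daily means lay between -0.33 and -0.09 at days 1 to 7. GMNN (geminin), which binds and holds back the proteins that start the program, had -0.24 and -0.46 at day 14 (mean -0.35 ± 0.16) and daily means between -0.61 and -0.19 before. Neither passed the test against the pool at day 14 (adjusted p 0.0812 and 0.212, limma), and neither did between days (adjusted p 0.727 and 0.573, limma F-test). Over all probes 330 were higher (3.33%) and 293 lower (2.96%) than the pool at day 14, and the median log2 ratio over all probes was 6.0e-05. Without day 14 replicate 2 these counts were 15 and 15, and without day 14 replicate 1 they were 87 and 81, so they rest on both tumors. MYB passed when the authors' own normalized values were used, with a mean of -0.64 and an adjusted p of 0.0206 (limma). MYB and GMNN are named because the study listed them for a change on these same arrays, so nothing is read from their p-values.

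Markers of other cells in the tumors were also few among the named probes, and those named had been listed for a change on these same arrays, so the counts of calls among them are selected and nothing is read from them. Of 12 luminal epithelial markers 7 were named, and at day 14 3 were higher than the pool (3.33% of all probes) and 2 lower (2.96%), with mean log2 ratios between -2.11 and 1.24. Of 8 fibroblast and matrix markers 2 were named, MGP and FN1, and both were lower (2.96% of all probes), at -1.15 and -0.61 (adjusted p 0.000711 and 0.0414, limma), although a second FN1 probe missed the threshold (adjusted p 0.0581, limma). Of 6 entries listed for red blood cells 2 were named, HBG1 at -1.11 and a joint entry for HBZ, HBA1, HBA2 and HBQ1 at -0.93. Neither passed the test. None of the 3 endothelial and 3 leukocyte markers was named, and signal from RNA of the mouse host on these human probes was not tested. Their part in the values of FOXJ1, CCNO and CAPS was not tested.

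The genes with the most similar course were sought among 250 named genes other than the members, by the root mean square difference of the log2 ratio over the 16 tumors. All 250 had been listed for a change on these arrays. The 2 FOXJ1 clones differed by 0.23 on this measure, FOXJ1 and CCNO by 0.50, FOXJ1 and CAPS by 0.52, and CCNO and CAPS by 0.33. FOXJ1 was thus nearer to both other members than to any of the 250 genes. This did not hold for CCNO or CAPS, which each had a nearer gene outside the members. The members were listed on these same ratios, so nothing is read from this order. Nearest to FOXJ1 among the 250 were PPAP2C, a lipid phosphate phosphatase (0.57), PSCA, a surface antigen first described in prostate (0.58), and ATP8A1, a phospholipid flippase (0.61). TMEM23, a sphingomyelin synthase (0.61), and CLU, the secreted chaperone clusterin (0.62), came next. At day 14 PSCA exceeded FOXJ1, with a mean of 3.39 and tumors at 3.11 and 3.67, while the others had means of 0.97 to 1.34.

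CCNO had neighbours closer than either other member, namely PPAP2C (0.24), ALDH4A1, a mitochondrial enzyme of proline breakdown (0.24), and ATP9A, another flippase (0.25). Nearest to CAPS were RUTBC3 (0.33), PPAP2C (0.35) and CYP2J2, a cytochrome P450 that oxidizes arachidonic acid (0.35). At day 14 the 3 neighbours of CCNO had means of 0.98 to 1.20, under the 1.56 of CCNO itself, and those of CAPS 1.11 to 1.18, under 1.58. All 9 of these neighbouring genes had been placed by the study in the same set of late rising genes as the members.

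**Figure D4:**
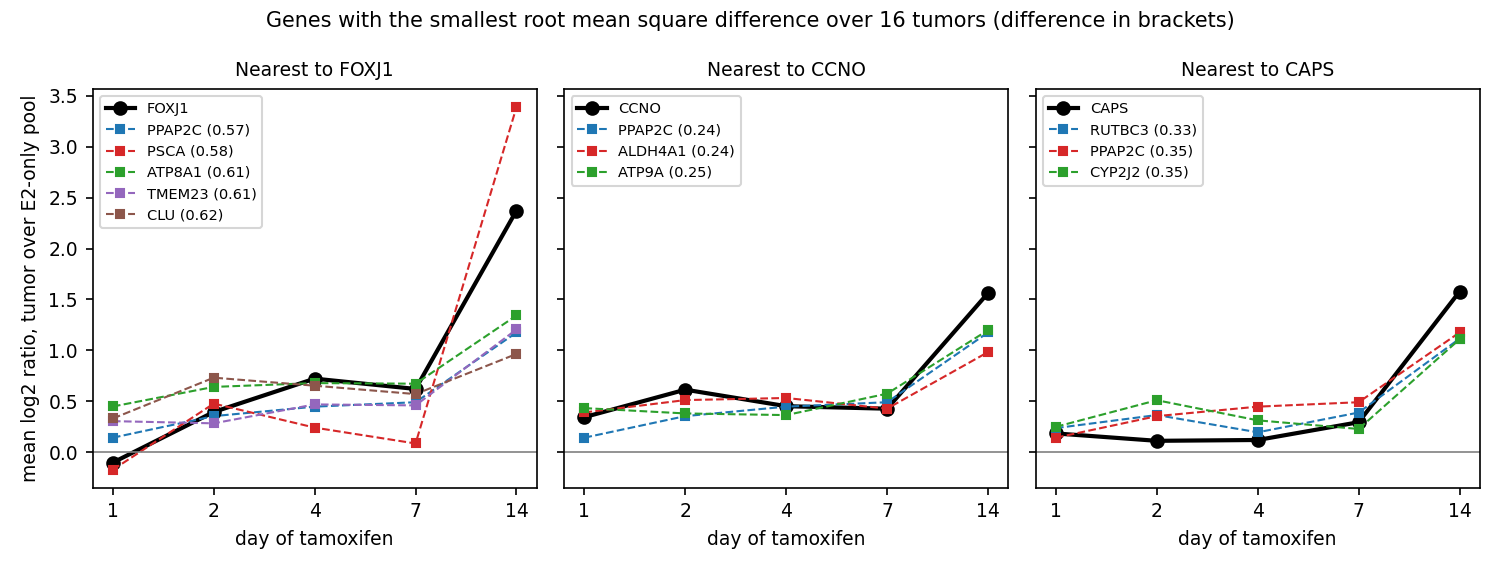
Mean log2 ratio of tumor over E2-only pool by day of tamoxifen for each member (black line, FOXJ1 as the mean of its clones) and for the genes nearest to it over the 16 tumors, with the root mean square difference in brackets. The members end above their neighbours at day 14, at 2.37 for FOXJ1, 1.56 for CCNO and 1.58 for CAPS, except that PSCA ends above FOXJ1 at 3.39.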

How the data were processed

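RNA of 16 xenograft tumors was measured against 1 control pool on 32 two-colour cDNA arrays of 9912 probes. The deposited intensity values are the foreground and background of each spot in both channels, as the authors' scanner gave them. The authors' deposited value table holds normalized log2 ratios per array, with column medians between -0.0083 and 0.011; the authors state background correction, loess and quantile normalization in limma for it. Its scale and centring were read from the values and its direction is likely only.

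Spots with the mark 0 in the file (1 to 393 per array) were left out. With limma 3.58.1 in R 4.3.3 the background was corrected by normexp with an offset of 50, then ratios were loess-normalized on each array and arrays were quantile-normalized to each other. The sign of dye swaps was turned, and both arrays of a tumor were averaged, so a tumor counts once. A linear model with a mean for each day, and with mice as a random block (correlation 0.021), was fitted to all 9912 probes, with Benjamini-Hochberg adjustment and a threshold of 0.05. The p-values leave out the spread of the control, which is 1 pool. The number of arrays limits the precision, and the median signal over local background was 2.77 to 8.12 per array. The scripts were tested on simulated data.

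Gene names came from the study's list (333 probes, 253 symbols). Named were the members, the listed genes of fixed gene lists (at most 10 per list), the 5 genes nearest to FOXJ1 and 3 each nearest to CCNO and CAPS, and TFF1, TFF3, PDZK1 and IGFBP5 to check the direction. For genes with several probes the brightest was used, and the 2 FOXJ1 clones are told apart as the dimmer and the brighter by their mean signal (48.9% and 56.9% of all probes were dimmer). The members and lists were chosen with earlier results of these data known. The alternatives were other background corrections and normalizations, the marked spots, the authors' table, the left-out array, each orientation alone, a filter on dim probes, other blocks and each tumor left out.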

Additional observations from a re-analysis of the deposited data

Results flagged for a closer look

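For the brighter FOXJ1 clone, day 4 replicate 5 had a log2 ratio of 0.19, far below 0.91 to 1.02 in the other 3 tumors of day 4. It was picked out because its gap to the next tumor was 0.87 of the range of the group, above Dixon's 95% critical value for 4 samples. 18 groups were examined in this way, and chance picks about 1 in 20. The same tumor was also the lowest of its day for the dimmer FOXJ1 clone (0.34), for CCNO (0.36) and for CAPS (-0.15).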

How the results depend on the processing

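Over 7 alternatives in the background correction, the normalization, the marked spots, the authors' table and the left-out array, the 20 daily means of the 4 probes gave 140 values, of which 133 moved by less than the SD of the tumors and 7 by more, with no change of sign in a mean whose tumors all lay on 1 side of the pool. A move within the SD could still be large for FOXJ1. With the authors' table the day 7 means of its clones were 0.33 and 0.37, against 0.62 for each. The day 14 means ranged from 1.80 to 2.43 and 1.92 to 2.41 for the FOXJ1 clones, from 1.41 to 1.58 for CCNO and from 1.36 to 1.63 for CAPS. On the dye-swap arrays alone the day 1 mean of CAPS turned to -0.024. Its day 4 mean was -0.16 there and 0.34 on the forward arrays, and its day 14 mean 1.13 and 2.02.

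The F-test between days called 8 probes (0.0807%; 996 at an unadjusted p under 0.05), and 13 with plain background subtraction, with no background correction or without the dimmest 25% of probes. The listed genes called at day 14 were 0, and 1 (MYB) with the authors' table. The causes were not tested. Leaving out each tumor gave 30 to 730 probes at day 14 against 623, 1 to 16 for the F-test and 0 for the listed genes. The lowest counts of 30 and 1 came without day 14 replicate 2, the 16 without day 2 replicate 2, and without day 14 replicate 1 the day 14 count was 168. Without day 14 replicate 2 the FOXJ1 clones stood at 1.84 and 1.78, CCNO at 1.41 and CAPS at 1.30, each from 1 tumor, which the model takes to vary like those of the other days. Without day 1 replicate 1 the day 1 mean of the brighter FOXJ1 clone was 0.058, against -0.13 with it. Calls of single genes other than the regulators were not recomputed without a tumor.

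Tumors of different days that share a replicate number did not deviate together (mean r 0.010 over 24 pairs, -0.17 to 0.18, against -0.0032 over 76 other pairs; 5 of 16 tumors correlated best with their own number), so the numbers do not pair them. With the replicate block 292 probes were called at day 14, 142 higher and 150 lower.

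Only 2 tumors of 2 mice represent day 14, and the pool is 1 sample. The pool signal of FOXJ1 is weak on the day 14 arrays, and most probes carry no gene name here.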
